A study of Homo sapiens with 2 samples.

Results

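The 9 genes examined here mark neurons that release catecholamines (TH, DBH, PNMT, SLC6A2, SLC6A3 and NR4A2) or acetylcholine (CHAT, SLC18A3 and SLC5A7). They were chosen by symbol among the 61487 genes counted in both libraries, and each symbol was found once. Their raw UMIs (unique molecular identifiers, which count captured transcripts) were read in each cell barcode together with those of TPH2 and FEV. The main question was how much TH was present in cells with serotonergic transcripts.

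Tyrosine hydroxylase, the product of TH, makes L-DOPA from tyrosine and is the rate-limiting step of catecholamine synthesis. Serotonergic neurons run a parallel route in which TPH2 hydroxylates tryptophan. Both hydroxylases need tetrahydrobiopterin, which GCH1 begins to make, and both routes then share the decarboxylase DDC and the vesicular monoamine transporter SLC18A2. DBH turns dopamine into noradrenaline, PNMT turns noradrenaline into adrenaline, and SLC6A2 and SLC6A3 take noradrenaline and dopamine back up at the plasma membrane. NR4A2 is a nuclear receptor needed for midbrain dopaminergic neurons. Cholinergic neurons make acetylcholine with CHAT, load it into vesicles with SLC18A3 and recover choline with SLC5A7.

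The study asked what FOXA2, a transcription factor of the floor plate, does in the differentiation of human serotonin neurons. H9 (WA09) embryonic stem cells carrying an EGFP knock-in at TPH2 were differentiated for 42 days under SHH pathway activation, sorted for EGFP and profiled with the 10x Genomics 3' kit. The WT-labelled library carried the reporter alone. The FKO-labelled library came from cells in which the reporter had been added to the FKO2 line, where Cas9 cleavage and end joining had left an early stop codon in FOXA2. Each condition was 1 library without replicates, so no test between conditions was possible, and the purmorphamine dose given to these cells was not stated in the sources used; a number in the name of 1 deposited file was not read as a dose. For other day 42 cells the study names a lower dose with WT and a higher dose with FKO, so a difference in dose between the libraries is possible and cannot be told apart from genotype. The WT-labelled library held 11052 barcodes with 123064653 UMIs, of which 5721 cells with a median of 12442 UMIs were kept. The FKO-labelled library held 8806 barcodes with 70588747 UMIs, and 6980 cells with a median of 6925.5 UMIs were kept. Levels are given as CPM, the count of a gene per 1000000 UMIs of the same cells, with exact 95% intervals that cover counting error only.

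FOXA2 transcript was higher in the FKO-labelled library. It stood at 4.11 CPM (312 UMIs) in the WT-labelled library and at 22.3 CPM (1295 UMIs) in the FKO-labelled library, a log2 ratio of 2.44 (2.26 to 2.62). A 3' count does not show a small deletion or insertion, so the genotype was not readable from these counts, and the libraries are named by their labels only. At a mitochondrial limit of 5% in place of 10% the ratio was 0.30, from 47 and 433 UMIs, with 336 cells left in the WT-labelled library. Barcodes with over 10% mitochondrial UMIs made up 40.4% of the WT-labelled library and 13.5% of the other. The libraries shared 21 barcode sequences as deposited and 5 among the kept cells.

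The serotonergic label fitted the transcripts of most cells. TPH2 was detected in 71.5% of kept cells labelled WT and 52.7% labelled FKO, and FEV, a transcription factor of serotonergic neurons, in 97.9% and 91.0%. All 7 serotonergic genes of the list (TPH2, FEV, GATA2, GATA3, LMX1B, SLC6A4 and HTR1A) reached 1 CPM, and 3 were at least 2-fold higher in the FKO-labelled library. The summed level of this list was 2452 CPM against 2047 CPM. Over all genes that reached 1 CPM, 29.4% were at least 2-fold higher there and 2.43% at least 2-fold lower, which is the measure for these counts and those that follow. Transcripts of other cells were present too and were unequal. Among 5 mesenchymal genes, 3 were at least 2-fold higher in the FKO-labelled library, and their sum was 37.3 CPM against 227.7 CPM, with LUM and COL1A2 as the most abundant genes. Among 6 measured glial and progenitor genes, 4 were at least 2-fold higher there, with sums of 119.2 CPM and 139.5 CPM, SOX2 the most abundant, and SOX10 at 0 UMIs in the WT-labelled library against 399. Floor plate genes summed to 52.3 CPM and 69.7 CPM, with FOXA2 and NTN1 at least 2-fold higher, SHH (log2 ratio -1.0, -1.26 to -0.75) and CORIN (-1.91, -2.36 to -1.48) at least 2-fold lower, and SPON1 the most abundant. Of 4 cycling genes 1 was at least 2-fold higher, and the sums were 42.8 CPM and 61.7 CPM, with CENPF the most abundant. None of the 8 measured immediate early and stress genes differed by 2-fold, and their sums were 166.8 CPM and 170.6 CPM, led by JUN. Genes could enter these counts through the library where they were high. With 1 CPM asked of both libraries, added after seeing the data, the genes at least 2-fold higher were 2 of 6 serotonergic, 3 of 5 mesenchymal, 2 of 4 glial and progenitor, 2 of 5 floor plate and 1 of 4 cycling genes, beside 22% of all genes, and 1 floor plate gene was at least 2-fold lower. The part of these differences in the results that follow was not tested.

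TH was the most abundant of the 9 genes in UMIs and was lower in the FKO-labelled library. It stood at 16.5 CPM (15.6 to 17.4; 1251 UMIs) in the WT-labelled library and at 7.42 CPM (6.74 to 8.16; 431 UMIs) in the FKO-labelled library, a log2 ratio of -1.15 (-1.31 to -0.99). PNMT stood at 7.08 CPM (537 UMIs) and 1.43 CPM (83 UMIs), a log2 ratio of -2.31 (-2.66 to -1.97). The enzyme between them in the pathway was nearly missing, since DBH had 3 UMIs in the WT-labelled library and 1 in the other. The transporters were at the same limit. SLC6A2 had 0 UMIs and 1 UMI, where 0 of 5721 cells allows a share of cells with a UMI of up to 0.0524%, and SLC6A3 had 1 UMI and 2 UMIs. NR4A2 went the other way, with 25 UMIs (0.329 CPM) against 260 UMIs (4.48 CPM) and a log2 ratio of 3.76 (3.17 to 4.42).

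The cholinergic genes were scarce, and SLC5A7 and SLC18A3 were lower in the FKO-labelled library. SLC5A7 stood at 2.35 CPM (178 UMIs) and 0.896 CPM (52 UMIs), with a log2 ratio of -1.39 (-1.86 to -0.94). SLC18A3 stood at 1.13 CPM (86 UMIs) and 0.413 CPM (24 UMIs), with a log2 ratio of -1.45 (-2.17 to -0.79). CHAT had 8 UMIs and 7 UMIs, and no difference was detectable at this depth (log2 ratio 0.19, -1.50 to 1.85). Across 16367 genes with at least 1 CPM in either library the median log2 ratio was 0.58. Relative to it the values were -1.73 for TH, -2.89 for PNMT, -1.97 for SLC5A7, -2.04 for SLC18A3 and 3.18 for NR4A2. Of the 5 genes that reached 1 CPM, 4 were at least 2-fold lower in the FKO-labelled library, beside 2.43% of all genes measured. The remaining gene, NR4A2, was at least 2-fold higher, beside 29.4% of all genes. The other 4 genes were below 1 CPM in both. SLC18A3, SLC5A7 and NR4A2 reached 1 CPM only in the library where they were higher. With 1 CPM asked of both libraries, added after seeing the data, TH and PNMT remained and both were at least 2-fold lower, beside 1.83% of 14064 genes. At a mitochondrial limit of 5% the log2 ratio of TH was -0.59 (-1.08 to -0.06), under 2-fold, and those of SLC18A3 and SLC5A7 were -0.73 (-3.00 to 2.52) and -2.26 (-3.22 to -1.25). NR4A2 had 1.68 (0.08 to 4.0) there and 5.18 (3.57 to 7.49) in cells with TPH2 and FEV, where SLC5A7 had -0.68 (-1.31 to -0.07).

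**Figure D1:**
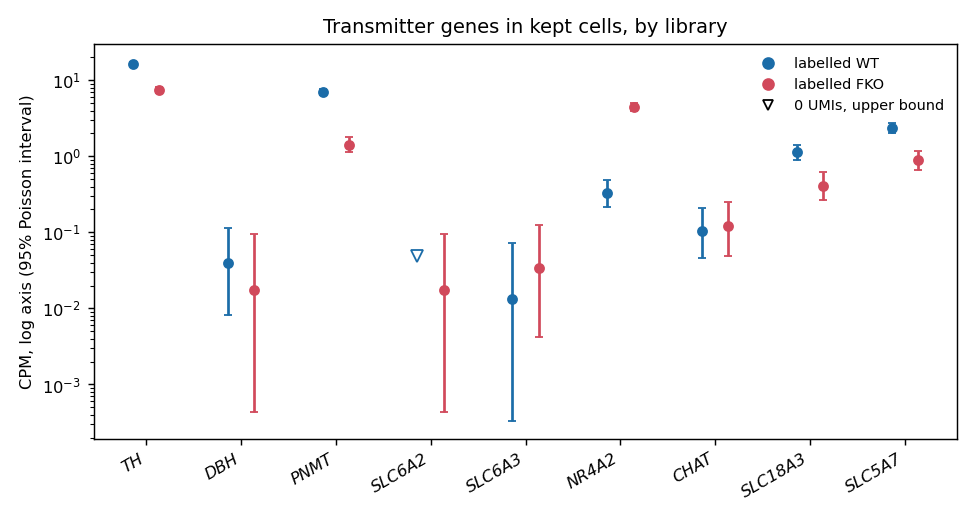
Level of each of the 9 genes in CPM on a log axis, for the libraries labelled WT (blue) and FKO (red), with 95% Poisson intervals; the open triangle marks the upper bound where 0 UMIs were counted. TH, PNMT, SLC18A3 and SLC5A7 sit lower in the FKO-labelled library and NR4A2 higher, while DBH, SLC6A2, SLC6A3 and CHAT rest on 8 UMIs or fewer.

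On GRCh38 (GENCODE release 29) TH (ENSG00000180176) spans 11:2163929-2171877 on the minus strand and PNMT (ENSG00000141744) spans 17:39667981-39670475 on the plus strand. NR4A2 (ENSG00000153234) spans 2:156324432-156342348 on the minus strand, and SLC5A7 (ENSG00000115665) spans 2:107986523-108013994 on the plus strand. The submitters name GRCh38 as the build, and their annotation release is not stated. SLC18A3 (ENSG00000187714, 10:49610301-49612720) lies inside CHAT (ENSG00000070748, 10:49609095-49665104) on the same strand. It starts 1206 bases after the start of CHAT and overlaps 0 of its exons. Whether reads in introns were counted is not stated, so UMIs given to SLC18A3 and those from unspliced CHAT transcripts cannot be told apart. Levels of different genes are therefore not ranked against each other beyond their UMIs.

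The transcripts around TH in the same pathway were abundant in both libraries. DDC stood at 269.8 CPM in the WT-labelled library and 225.7 CPM in the FKO-labelled library, and GCH1 at 68.4 CPM and 64.3 CPM. The vesicular transporter SLC18A2 stood at 19.2 CPM and 50.7 CPM (log2 ratio 1.40, 1.31 to 1.49), and MAOA, which degrades monoamines, at 8.56 CPM and 37.4 CPM (2.13, 2.0 to 2.25). These 2 were at least 2-fold higher in the FKO-labelled library. Lower by less than 2-fold were MAOB, at 183.4 CPM and 146.9 CPM (-0.32, -0.36 to -0.28), PTS, at 151.2 CPM and 101.8 CPM (-0.57, -0.62 to -0.53), and QDPR, at 117.1 CPM and 72.5 CPM (-0.69, -0.74 to -0.64). Relative to the median of all genes these 3 were at -0.90, -1.15 and -1.27.

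Transcription factors listed for catecholamine neurons were sparse or followed another pattern. The noradrenergic factors PHOX2A (2 UMIs in each library) and HAND2 (0 UMIs and 14 UMIs) stayed below 1 CPM. The midbrain dopaminergic genes LMX1A (12 UMIs and 15 UMIs), PITX3 (11 UMIs and 9 UMIs) and ALDH1A1 (2 UMIs and 4 UMIs) did too. EN1, a factor of the midbrain and rostral hindbrain that serotonergic neurons also express, stood at 71.3 CPM and 157.9 CPM. Of 9 factors of this list that reached 1 CPM, 7 were at least 2-fold higher in the FKO-labelled library, beside 29.4% of all genes. Several of them passed only through that library, and with 1 CPM asked of both libraries 3 of 5 were, beside 22% of all genes. Among the 7 were TFAP2A (log2 ratio 4.27, 3.64 to 4.96), TFAP2B (3.86, 3.48 to 4.26) and FOXA1 (1.77, 1.53 to 2.02). EN1 and the immediate early gene NR4A1 (1.81, 1.44 to 2.19) were too, and neither is particular to catecholamine neurons. EN1 was the most abundant of the 9 in both libraries.

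TH transcripts lay mostly in cells that also held TPH2 and FEV. Of 945 cells with a TH UMI in the WT-labelled library, 718 (76.0%) had UMIs of both, and of 355 such cells in the FKO-labelled library, 240 (67.6%) did. These numbers lay close to those given by the frequency of TPH2 and FEV in cells of like depth. Cells with TH and TPH2 numbered 720 where 714.5 were expected in the WT-labelled library, and 242 where 223.7 were expected in the other. Expected numbers here are products of the genes' shares within 10 equal groups of cells ordered by UMIs. Most TH cells held little of it: 77.1% in the WT-labelled library and 83.1% in the FKO-labelled library had exactly 1 TH UMI, and the highest counts were 7 and 5.

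In the WT-labelled library the TH level was 16.8 CPM (15.8 to 17.9) in 4072 cells with both TPH2 and FEV and 15.8 CPM (14.1 to 17.8) in 1531 cells with FEV alone. It was 7.24 CPM (2.66 to 15.7) in 102 cells with neither, from 6 UMIs. The log2 ratio of cells with both over cells with neither was 1.22 (0.09 to 2.67). It was 0.06 (-0.63 to 0.84) at a mitochondrial limit of 20% and turned to -0.04 at 5%, where 2 UMIs in 31 cells with neither remained. In the FKO-labelled library the TH level was 8.47 CPM (7.52 to 9.50) in 3605 cells with both, 5.83 CPM (4.82 to 6.99) in 2745 cells with FEV alone and 5.97 CPM (3.69 to 9.12) in 555 cells with neither. There the ratio of both over neither was 0.51 (-0.13 to 1.22) and that of both over FEV alone was 0.54 (0.22 to 0.86). Cells with TPH2 alone were few, 16 and 75, with 2 TH UMIs and 4 TH UMIs. TH was thus not detectably different between cells with both genes and cells with neither in the FKO-labelled library, while the gap to cells with FEV alone lay outside counting error there.

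A TH UMI was found in 17.6% of cells with TPH2 and FEV in the WT-labelled library (median 12897 UMIs) and in 6.66% in the FKO-labelled library (median 7525 UMIs). Each cell with at least 2000 UMIs was then thinned to that number, which left out 43 cells and 116 cells. In thinned cells with TPH2 and FEV the shares were 2.45% (1.72 to 3.37) and 1.06% (0.597 to 1.75). In thinned cells with neither gene they were 3.44% (2.05 to 5.38) and 1.39% (0.839 to 2.16). A gene needs 500 CPM to reach 1 UMI on average at that depth, so thinning also strips TPH2 from cells that had it, and the thinned groups are less distinct. In thinned cells with FEV alone they were 3.46% (2.89 to 4.11) and 0.963% (0.679 to 1.33), and over all thinned cells 3.15% (2.71 to 3.64) and 1.08% (0.847 to 1.35). The thinned shares were lower in the FKO-labelled library, with intervals apart over all cells and in cells with FEV alone and slightly overlapping in the smaller groups, and they did not set the cells with TPH2 and FEV apart from the rest.

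**Figure D2:**
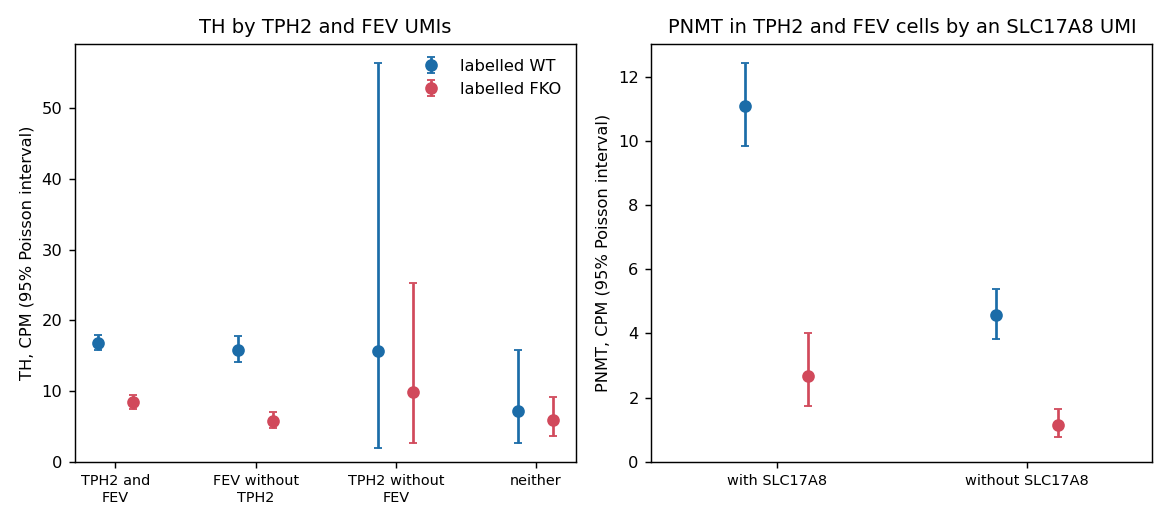
Left, TH level in CPM by detection of TPH2 and FEV in the libraries labelled WT (blue) and FKO (red). Right, PNMT level in CPM among cells with TPH2 and FEV, with or without an SLC17A8 UMI; bars are 95% Poisson intervals. PNMT is higher with SLC17A8 in both libraries.

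TH varied more among clusters than between the groups set by TPH2 and FEV. Cells of both libraries were clustered together on 2000 variable genes that left out the 9 genes and their lists, which gave 15 clusters, named here by number and leading genes. TH was highest in cluster 6, led by the secreted factor STC1 and the neuropeptide genes CRH and GAL, at 42.8 CPM (38.8 to 47.1; 554 cells) in the WT-labelled library and 27.3 CPM (22.9 to 32.2; 377 cells) in the FKO-labelled library. A TH UMI was found there in 47.1% and 28.1% of cells, and the cluster held 33.4% and 32.0% of all TH UMIs. Within cluster 6 the cells with TPH2 and FEV had 43.8 CPM and 26.4 CPM, and the remaining cells had 38.4 CPM and 29.7 CPM. Detection of TPH2 thus made little difference to TH inside the cluster. In the FKO-labelled library the same split gave 7.68 CPM against 2.92 CPM in cluster 1 and 6.57 CPM against 2.73 CPM in cluster 4. In cluster 9 it gave 7.25 CPM against 1.41 CPM. Clusters 2, 3, 5 and 11 had the lower level in cells with TPH2 and FEV there, and within each of these clusters the intervals overlapped. At resolution 0.2, where cells of cluster 6 lie in a larger cluster led by STC1 and PLD5, that cluster remained highest with the WT label (23.4 CPM). With the FKO label it had 10.5 CPM (9.29 to 11.9), and the cluster led by LHX5-AS1 and HCRT was highest at 12.4 CPM (9.69 to 15.8). GAL, looked at after its values were seen, stood at 25.2 CPM over all cells of the WT-labelled library and 0.758 CPM over those of the other.

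Below cluster 6 the order in the WT-labelled library was cluster 9, led by SLC16A3 and BNIP3 (22.8 CPM), cluster 7, led by LHX5-AS1 and HCRT (22.2 CPM), cluster 11, led by ATF3 and PHGDH (17.3 CPM), and cluster 1, led by SHOX2 and PLD5 (16 CPM). Cluster 4, led by EPHA5 and CHODL, followed at 14.8 CPM, and cluster 15, led by H2BC21 and TMEM97, at 14.3 CPM from 4 UMIs. Each of these overlapped its neighbour within counting error. The next clusters were 3 (ONECUT2, 9.79 CPM), 2 (SOX2 and CALB1, 8.71 CPM), 8 (SLC17A8 and COL5A2, 7.19 CPM) and 5 (CAV1 and RORB, 7.04 CPM), which overlapped one another as well. The lowest levels were in cluster 10, of shallow cells (3.49 CPM from 1 UMI), cluster 12, led by COL1A1, SULF1 and TFF3 (2.06 CPM from 5 UMIs), and cluster 13, where the cycling markers TOP2A, CENPF, MKI67 and UBE2C led (2.04 CPM from 2 UMIs).

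In the FKO-labelled library cluster 6 was followed by the small cluster 15 (26.0 CPM from 5 UMIs), cluster 7 (12.1 CPM), cluster 11 (10.6 CPM), cluster 9 (6.46 CPM), cluster 1 (5.89 CPM), cluster 8 (5.78 CPM) and cluster 4 (5.56 CPM). Clusters 3, 12, 10, 13, 5 and 2 lay between 4.13 CPM and 2.44 CPM, and cluster 14, led by S100B and present in that library only, had 0 TH UMIs in 103 cells, which allows a share of cells with a UMI of up to 2.91%. Cluster 6 stood apart from all but cluster 15, and below it each cluster overlapped its neighbour.

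Cycling cells and cells with collagen transcripts were taken as a background for TH. Whether their TH UMIs are background was not tested, and both clusters also hold cells with TPH2 and FEV. A TH UMI was found in 4.44% and 3.23% of cells of cluster 13 (median 22433 and 12237.5 UMIs) and in 3.55% and 4.35% of cells of cluster 12 (median 16241 and 10544 UMIs). The share over all cells was 16.5% in the WT-labelled library and 5.09% in the FKO-labelled library. The latter lies close to the shares in clusters 12 and 13. In the FKO-labelled library the levels of clusters 1 to 5, 8 and 9 (2.44 to 6.46 CPM) lay within the interval of cluster 12 (1.77 to 8.06), so TH there was not distinguishable from this background. Of the 8 TH UMIs of cluster 12 in that library 4 lay in its 16 cells with TPH2 and FEV (11.5 CPM), and its other cells had 2.49 CPM (0.678 to 6.37). Against cluster 14, with 0 TH UMIs and an exact Poisson upper bound of 3.92 CPM, the intervals of clusters 1, 4 and 9 lay above the background and those of clusters 2, 3, 5 and 8 did not. The answer for clusters 1, 4 and 9 thus depends on the cells taken as background, as it does for cluster 11 (5.46 to 18.5). Clusters 6 and 7 had intervals above these and above cluster 13 (0.630 to 8.93, from 3 UMIs), while cluster 15 (8.45 to 60.7, from 5 UMIs) overlapped cluster 13. All 3 UMIs of cluster 13 lay in its 13 cells with TPH2 and FEV. Its other 49 cells had 0 TH UMIs and an upper bound of 6.38 CPM, which the interval of cluster 15 exceeded. In the WT-labelled library 3 of the 5 TH UMIs of cluster 12 lay in its 32 cells with TPH2 and FEV, and its other cells had 1.22 CPM (0.148 to 4.41). The intervals of clusters 1 to 9 and 11 there lay above the upper bound of 4.80 CPM in the whole of cluster 12. Against cluster 13, with an upper bound of 7.38 CPM from 2 UMIs, this held for clusters 1, 4, 6, 7, 9 and 11 and not for clusters 2, 3, 5 and 8.

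**Figure D3:**
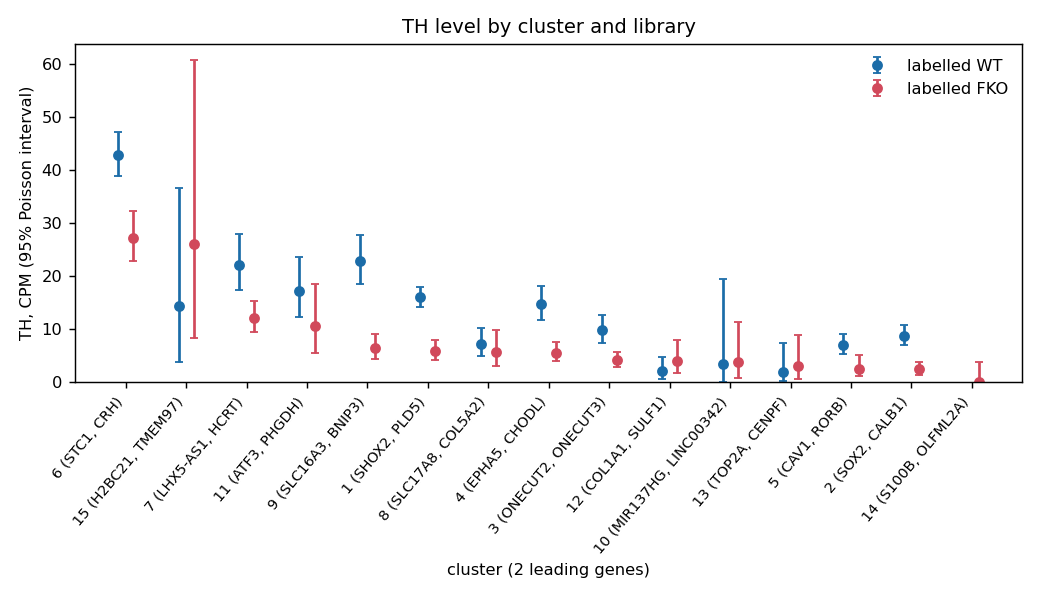
TH level in CPM in each cluster for the libraries labelled WT (blue) and FKO (red), with 95% Poisson intervals and clusters named by number and leading genes. Cluster 6, led by STC1 and CRH, is highest in both, and cluster 14 has cells in the FKO-labelled library only.

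The lower TH in the FKO-labelled library was found within most clusters as well. A ratio could be given in 12 clusters, of which 10 had a lower TH level in the FKO-labelled library and 8 had an interval below 0. The log2 ratios ran from -1.84 in cluster 2 to 0.99 in cluster 12, where 5 UMIs and 8 UMIs were counted. In cluster 6 the ratio was -0.65 (-0.94 to -0.37), or -1.19 once the median gene of that cluster was subtracted. In cluster 1 it was -1.44 (-1.94 to -0.98), and in cluster 9 it was -1.82 (-2.43 to -1.24). The exceptions to the direction were clusters 12 and 15, both resting on fewer than 10 UMIs in each library.

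Over the 12 clusters with at least 50 cells of each library, the genes whose log2 level was most like that of TH were INAFM1 (Pearson r 0.95 in the WT-labelled library and 0.86 in the FKO-labelled library), HABP4 (0.80 and 0.82), ENSG00000217801 (0.93 and 0.74), CARD19 (0.92 and 0.71) and PHLDA2 (0.75 and 0.70). They were ranked by the lower r among 7630 genes. The points are clusters of the same libraries, so these values describe a likeness only.

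Comparing cells with and without a TH UMI among those with TPH2 and FEV gave a short list of genes. Of 5711 genes with at least 20 CPM, 4 were at least 2-fold higher in TH cells of both libraries (0.07% of the genes) and 0 were at least 2-fold lower in both (0%). CRH, the corticotropin-releasing hormone gene, stood at 39.6 CPM in TH cells against 8.81 CPM in the others in the WT-labelled library, and at 37.4 CPM against 7.60 CPM in the FKO-labelled library. Its log2 folds were 2.17 (1.97 to 2.36) and 2.30 (1.99 to 2.60). STC1 followed with 1.5 and 1.79, then DLK1, a Notch-related membrane protein gene, with 1.10 and 1.12, and the noncoding RNA MIR4435-2HG with 1.02 and 1.64. The next genes were NRIP3 (1.07 and 0.86), S100A10 (0.80 and 1.76), ADAP2 (1.06 and 0.78), the neuropeptide precursor VGF (0.74 and 1.10), CYSTM1 (0.69 and 1.01) and ENSG00000217801 (0.93 and 0.69). CRH and STC1 were at least 2-fold higher also with doublets kept, where 2 genes passed, and none passed when TH cells were called after thinning. CRH and MIR4435-2HG reached 20 CPM in TH cells only, so the change itself let them in. ADAP2 also reached 20 CPM in TH cells only, in both libraries. The same held for NRIP3 in the WT-labelled library and for S100A10 and ENSG00000217801 in the FKO-labelled library. With 20 CPM asked of TH cells and other cells together, an alternative added after seeing the data, STC1 and DLK1 passed out of 5535 genes. At 5 CPM over all these cells 6 of 9960 genes passed, CRH and MIR4435-2HG among them.

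The genes lowest in TH cells included a glutamate transporter and a transcription factor of serotonergic neurons. SLC17A8, the vesicular glutamate transporter VGLUT3 of a known group of serotonergic neurons, stood at 87.0 CPM in TH cells and 217.8 CPM in the others in the WT-labelled library, and at 72.4 CPM against 127.7 CPM in the FKO-labelled library. Its log2 folds were -1.32 (-1.42 to -1.23) and -0.82 (-0.99 to -0.64). Over all cells, TH and SLC17A8 met in 313 cells of the WT-labelled library where 377.3 were expected. With the FKO label they met in 79 cells where 73.1 were expected. Among cells with TPH2 and FEV there, TH stood at 8.85 CPM (7.01 to 11.0) with an SLC17A8 UMI and 8.34 CPM (7.25 to 9.54) without one. Fewer joint cells were thus seen with the WT label only. GATA2, a serotonergic transcription factor, had -1.02 and -0.65, RALYL had -0.89 and -0.56, CPNE4 had -0.56 and -0.80, and ROBO1, an axon guidance receptor, had -0.66 and -0.55. GATA2 in the WT-labelled library (14.0 CPM in TH cells and 28.4 CPM in the others) reached 20 CPM only in cells without a TH UMI. CPNE4 did so in the FKO-labelled library (11.5 CPM and 20.1 CPM). TH cells were deeper than the others, with medians of 15417.5 and 12363 UMIs in the WT-labelled library and 12843.5 and 7341 UMIs in the FKO-labelled library. The part of depth in these folds was not tested beyond the thinned call.

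**Figure D4:**
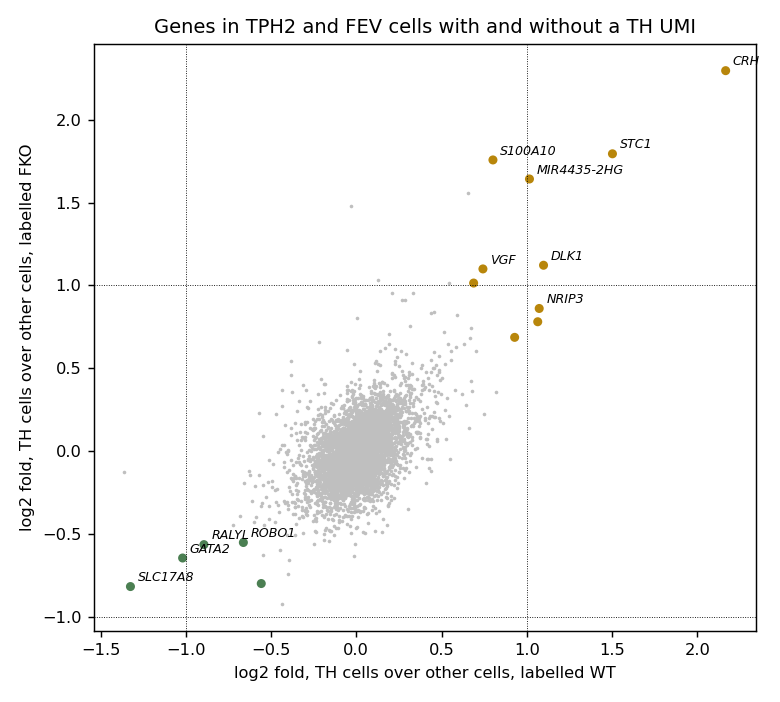
Log2 fold of each of 5711 genes in cells with a TH UMI over cells without one, among cells with TPH2 and FEV, in the WT-labelled library (x axis) and FKO (y axis). Dotted lines mark 2-fold; orange points are the 10 genes highest and green points the 5 lowest by the less extreme fold, with CRH and STC1 at the upper right and SLC17A8 at the lower left.

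The pathway and serotonergic lists moved little between cells with and without TH, each in 1 direction. Floor plate, cycling and mesenchymal genes had 0 members among the genes compared, so a change of those lists was not measured here. All 7 pathway partners with at least 20 CPM (DDC, GCH1, MAOB, PCBD1, PTS, QDPR and SLC18A2) had folds above 0 in both libraries, beside 35.6% of all genes, with medians of 0.15 and 0.29. The smallest were those of SLC18A2 in the WT-labelled library (0.03) and of DDC in the FKO-labelled library (0.003). PTS, which makes a precursor of tetrahydrobiopterin, had 0.26 and 0.29, and QDPR, which regenerates the cofactor, had 0.15 and 0.31. All 6 serotonergic genes at that level had folds below 0 in both, beside 30.3% of all genes, with medians of -0.22 and -0.26. FEV and LMX1B were near 0 in the WT-labelled library (-0.005 and -0.02). A UMI of TPH2 and of FEV was required of every cell compared, which raises their levels in the shallower cells without TH. The folds of TPH2 and FEV are thus partly set by this choice of cells. GATA2, GATA3 (-0.20 and -0.14), LMX1B and SLC6A4 (-0.24 and -0.31) were not part of it. Only GATA2 in the WT-labelled library passed 2-fold among these 13 genes, and it reached 20 CPM there only in cells without a TH UMI. The median over all 5711 genes was 0.01 and 0.00.

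Cells with transcripts for making and storing dopamine were counted directly. DDC was found in 879 of 945 TH cells (93.0%; 853.0 expected) in the WT-labelled library and in 297 of 355 (83.7%; 281.7 expected) in the FKO-labelled library. SLC18A2 was found in 248 (26.2%; 225.9 expected) and 164 (46.2%; 150.6 expected). These pairs met as often as depth gave, within counting error. All of TH, DDC, GCH1 and SLC18A2 were found together in 178 cells and 97 cells. The product of all 4 shares gives 127.5 and 66.4, but DDC, GCH1 and SLC18A2 also go with one another. When the cells with these 3 genes were taken as 1 group, TH was expected in 156.4 and 88.3 of them, and the observed numbers were 1.14 (0.977 to 1.32) and 1.10 (0.891 to 1.34) times that. The next step of the pathway was not detectable in them at this depth: 0 cells held both TH and DBH in either library, where 0.71 and 0.0817 were expected from the few DBH UMIs. TH and PNMT were found together in 74 cells (84.3 expected) and 4 cells (5.96 expected), so the pair met no more often than depth gave.

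PNMT went with SLC17A8 more than with TH. Among clusters with at least 50 cells of each library it was highest in cluster 8, led by SLC17A8 and COL5A2, at 20.4 CPM (16.4 to 25.2) in the WT-labelled library and 4.89 CPM (2.44 to 8.75) in the FKO-labelled library. Cluster 5, where SLC17A8 and TPH2 are among the leading genes, had 14.2 CPM (11.8 to 17.0) and 4.50 CPM (2.46 to 7.55), which overlapped cluster 8. So did cluster 11, led by ATF3 and PHGDH, with 12.9 CPM (8.62 to 18.5) and 4.41 CPM (1.43 to 10.3). SLC17A8 was not among its leading genes but stood at 377.6 CPM and 237.9 CPM there, and TH was high in it too. In cluster 6, where TH peaked, PNMT stood at 3.58 CPM and 0.593 CPM. Among cells with TPH2 and FEV it was 11.1 CPM (9.86 to 12.4) with an SLC17A8 UMI and 4.56 CPM (3.83 to 5.39) without one in the WT-labelled library, a 2.43-fold gap. With the FKO label the values were 2.69 CPM (1.72 to 4.0) and 1.15 CPM (0.767 to 1.65), a 2.35-fold gap. PNMT and SLC17A8 met in 292 cells (199.5 expected) and 37 cells (16.9 expected).

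PNMT was lower in the FKO-labelled library in all 11 clusters with a ratio, and in 10 of them the interval lay below 0. The log2 ratios ran from -4.57 in cluster 4, where 39 UMIs and 2 UMIs were counted, to -0.55 in cluster 7. Every PNMT cell of the FKO-labelled library held 1 UMI, so no cell there stood out. Cluster 12, taken above as background for TH, was among the 10, with PNMT at 4.52 CPM (2.26 to 8.09) in 7.80% of its cells with the WT label and 0.512 CPM (0.013 to 2.85) with the FKO label. With the WT label only clusters 5, 8 and 11 had intervals above that of cluster 12, and with the FKO label none had. A lower PNMT level in the remaining clusters was thus not told apart from a lower background.

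**Figure D5:**
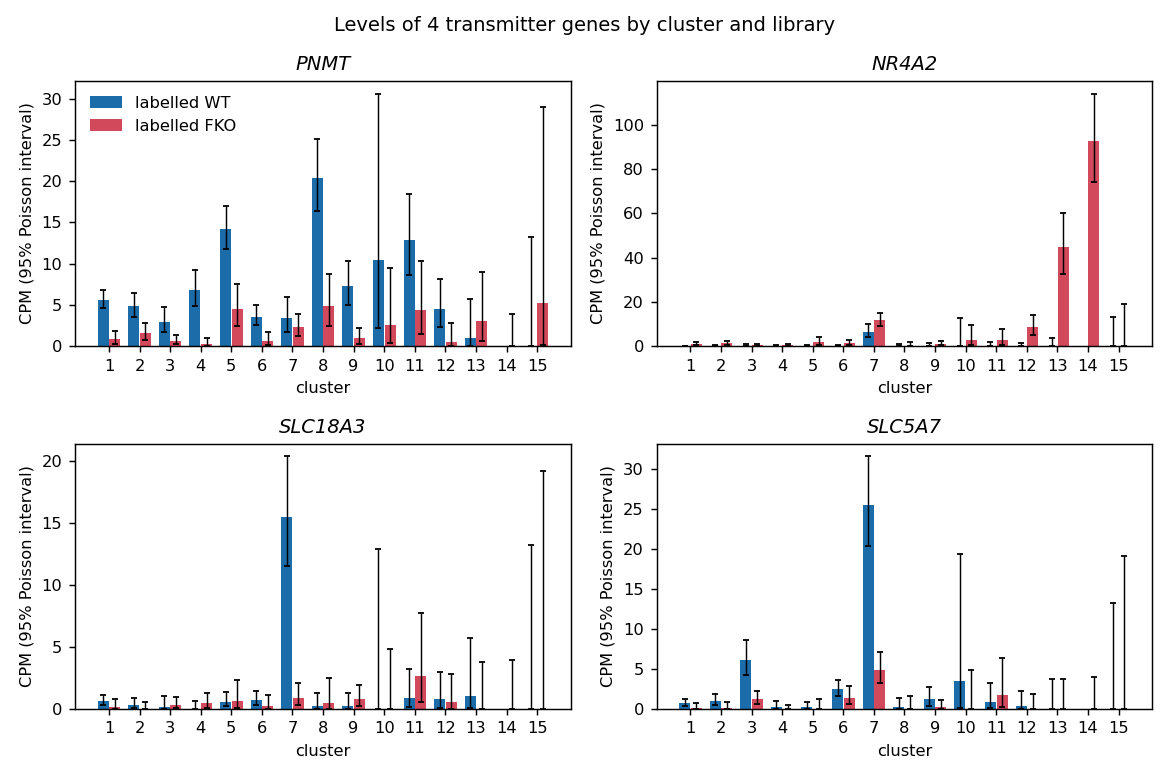
Level of PNMT, NR4A2, SLC18A3 and SLC5A7 in CPM in each of 15 clusters for the libraries labelled WT (blue) and FKO (red), with 95% Poisson intervals; cluster 14 holds no cells labelled WT. With the WT label PNMT is highest in cluster 8 and SLC18A3 and SLC5A7 in cluster 7; with the FKO label NR4A2 is highest in cluster 14.

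NR4A2 was lower in cells with TPH2 and FEV than in cells with neither, though many of its UMIs lay in cells with FEV. In the FKO-labelled library it stood at 30.4 CPM (24.9 to 36.7) in cells with neither gene, which held 41.2% of its UMIs, and at 4.02 CPM (3.19 to 5.0) in cells with FEV alone, which held 30.8%. Cells with both had 1.93 CPM (1.49 to 2.45) and 25.4% of its UMIs, a log2 ratio over cells with neither of -3.98 (-4.44 to -3.52). With the WT label 17 of 25 UMIs lay in cells with FEV alone. By cluster it was highest in cluster 14, led by S100B and OLFML2A, at 92.5 CPM (74.1 to 114.0), and in the cycling cluster 13 at 44.8 CPM (32.6 to 60.2). Cluster 7 had 12.0 CPM (9.28 to 15.2). Cluster 14 also held SOX10, a neural crest and glial transcription factor, at 262.7 CPM, and NR4A1, an immediate early relative of NR4A2, at 36.2 CPM.

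In the WT-labelled library, NR4A2 had 25 UMIs, of which 21 lay in cluster 7 (6.39 CPM, 3.95 to 9.77), and the cycling cluster had none in 45 cells, which allows a share of cells with a UMI of up to 6.67%. NR4A2 and NR4A1 met in 25 cells of the FKO-labelled library (5.67 expected). NR4A2 and TH met in 6 cells of the WT-labelled library (1.67 expected) and 5 cells of the other (12.1 expected), and the direction differed between the libraries.

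With the WT label SLC18A3 and SLC5A7 were gathered in cluster 7, led by LHX5-AS1, HCRT, SST and SLC17A6. There this cluster of 240 cells held 51 of 86 SLC18A3 UMIs and 84 of 178 SLC5A7 UMIs. Its levels were 15.5 CPM (11.6 to 20.4) and 25.6 CPM (20.4 to 31.6). The 588 cells of cluster 7 labelled FKO held 5 of 24 SLC18A3 UMIs and 28 of 52 SLC5A7 UMIs, at 0.879 CPM (0.285 to 2.05) and 4.92 CPM (3.27 to 7.11), so only SLC5A7 was gathered there in that library. The cluster was poor in TPH2, at 32.2 CPM and 53.6 CPM, and held ISL1, a factor of motor neurons, at 41.4 CPM (136 UMIs in 11 cells) and 13.2 CPM (75 UMIs in 11 cells).

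Outside cluster 7 the libraries differed less for SLC18A3. The log2 ratio of the FKO-labelled library over WT was -4.14 (-5.82 to -2.83) inside the cluster and -0.41 (-1.30 to 0.44) in all other cells, so the difference over all cells rested on cluster 7. A few cells carried much of it, since 7 cells labelled WT with at least 3 UMIs held 51.2% of the SLC18A3 UMIs. For SLC5A7, 17 such cells held 55.1%. SLC5A7 was lower in both, with -2.38 (-3.05 to -1.74) inside and -1.50 (-2.21 to -0.84) outside. A second group of SLC5A7 UMIs lay in cluster 3, led by ONECUT2 and ONECUT3, at 6.17 CPM (4.27 to 8.62) and 1.27 CPM (0.657 to 2.22).

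SLC18A3 and SLC5A7 met in 9 cells of the WT-labelled library where 1.04 were expected, and in 0 cells of the FKO-labelled library where 0.15 were expected. CHAT was found with both in 4 cells of the WT-labelled library and in 0 of the other. Of these 4 cells 3 lay in cluster 7 and held 41, 21 and 12 ISL1 UMIs, 6, 15 and 6 SLC18A3 UMIs and 13, 17 and 2 SLC5A7 UMIs. These 3 also held 1, 0 and 6 TH UMIs, 4, 0 and 1 TPH2 UMIs and 15, 5 and 1 FEV UMIs, and the cell outside cluster 7 held 2 TPH2 UMIs and 2 FEV UMIs. These 4 cells were the only ones in which all of the cholinergic genes were found together, and in 3 of them ISL1 had 12 UMIs or more.

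For 4 of the 9 genes (DBH, CHAT, SLC18A3 and SLC5A7) a RefSeq table gave a promoter window on GRCh38.p14; TH, PNMT, SLC6A2, SLC6A3 and NR4A2 had no entry. The windows of SLC18A3 (chr10:49610060-49610309) and SLC5A7 (chr2:107986274-107986523), both on the plus strand, are shown because these genes were high in the same cluster with the WT label and lower together in the FKO-labelled library. The SLC18A3 window runs a few bases past the GENCODE start of the gene given above. Capitals mark TGACG, the core of sites bound by CREB-type factors, or its reverse complement CGTCA.
SLC18A3: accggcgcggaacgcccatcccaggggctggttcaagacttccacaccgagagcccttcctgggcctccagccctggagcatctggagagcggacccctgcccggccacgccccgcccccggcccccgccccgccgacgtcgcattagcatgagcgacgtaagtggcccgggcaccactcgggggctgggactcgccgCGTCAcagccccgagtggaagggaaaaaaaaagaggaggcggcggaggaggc
SLC5A7: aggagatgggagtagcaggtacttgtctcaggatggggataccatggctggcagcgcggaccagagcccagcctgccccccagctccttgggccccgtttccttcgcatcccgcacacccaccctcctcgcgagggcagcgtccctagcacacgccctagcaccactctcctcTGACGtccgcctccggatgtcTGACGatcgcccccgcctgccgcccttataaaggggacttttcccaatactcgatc
The SLC18A3 window held 1 match and the SLC5A7 window 2 matches. At least 1 match was found in 21.2% of all 35116 windows of 250 bases in the table. Neither window held CAGCTG (in 14% of windows) or TAATTA (in 4.35%), each searched on both strands. Their GC content was 70.8% and 64.0%, beside a median of 58.0% over all windows. Such matches describe the letters of the window only.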

How the data were processed

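Sorted TPH2-EGFP cells of day 42 were measured by 3' single-cell RNA sequencing in 1 library labelled WT and 1 labelled FKO. The deposited values are raw counts of UMIs, not normalized by the authors and made with Cell Ranger 7.1.0 per the file headers (7.0 in the submitters' processing notes). Barcodes were kept with at least 1000 UMIs, 500 genes and a mitochondrial share up to 10%. Doublets were scored with Scrublet in scanpy 1.11.5, and the 977 and 620 barcodes with the highest scores were removed, at 0.8% per 1000 barcodes; its own threshold called 1 in each library.

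UMIs were pooled over cells, divided by all UMIs of those cells and given as CPM. Intervals at 95% were exact: Poisson for levels, Clopper-Pearson for shares and conditional binomial for ratios. For 0 cells with a UMI the limit given is 3 cells of the total, and for a level of 0 it is the exact Poisson bound. Genes with at least 1 CPM in either library were compared between libraries. Clustering used Seurat 5.3.0 in R 4.3.3 (canonical correlation integration, 30 dimensions, Louvain, resolution 0.5) without the 9 genes, the listed genes, and mitochondrial and ribosomal protein genes. Its cluster borders varied with the numerical library and the seed, so 4 further seeds, chosen after seeing the data, were run. With 1 library per group no p-value is given. A cluster compared with other cells is a description.

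The genes and lists were chosen with earlier results of these data known. Genes named in the text are the 9 genes, the genes of the lists (pathway partners, catecholamine factors, cholinergic partners and motor neuron factors, serotonergic, other transmitter, immediate early and stress, floor plate, cycling, mesenchymal, and glial and progenitor genes), the 10 highest and 5 lowest genes of the TH comparison by the less extreme fold of the libraries, and the 5 genes most like TH over clusters by Pearson r of log2(CPM + 1). Of the listed genes 2 are not reported here, nor are list sums or medians that include them. ALDH1A1 is a further marker of dopaminergic neurons. Leading genes of clusters and GAL were added after values were seen. Alternatives were mitochondrial limits of 5% and 20%, doublets kept, at least 2000 UMIs, other scaling, gates, thinning depths and filters, and resolution 0.2.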

Additional observations from a re-analysis of the deposited data

How the results depend on the processing

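Of 119 values recomputed under alternatives, 88 stayed within counting error, or within 1.5 times for counts of genes. Not all of these kept their direction. The log2 ratio of CHAT was 0.19 and became -0.39 with the median gene ratio set to 1. TH with DDC in the FKO-labelled library went from 1.05 to 0.99 times the expected number at a mitochondrial limit of 5%. Ratios of NR4A2, PNMT, SLC18A3 and SLC5A7 moved in 7 cases without a change of sign. The log2 ratio of TH between libraries stayed negative in every alternative run: it was -0.99 in cells with TPH2 and FEV only, -1.73 with the median gene ratio set to 1 and -0.59 at a mitochondrial limit of 5%, which left 336 cells labelled WT. In the WT-labelled library the log2 ratio of TH in cells with both TPH2 and FEV over cells with neither was 0.0598 at a limit of 20% and reversed to -0.0442 at 5%. At 5%, TH with DDC, PNMT and SLC18A2 stood at 1.11, 1.17 and 1.34 times the expected number there, and the thinned share of TPH2 and FEV cells with TH was 5.33%. Thinning to 4000 UMIs, which keeps more UMIs of each cell, gave shares of 5.44% and 2.13%, and at least 2 UMIs of TPH2 and FEV gave 0.382% in the FKO-labelled library. The number of genes 2-fold higher in TH cells was 7 with at least 2 TH UMIs, 12 with a filter at 5 CPM, 2 and 6 with filters at 20 CPM and 5 CPM over TH cells and other cells together (added after seeing the data), 2 with doublets kept and 0 with TH called after thinning. With 1 CPM asked of both libraries, also added then, 2 in place of 4 of the 9 genes were at least 2-fold lower in the FKO-labelled library, and 3 in place of 7 catecholamine factors at least 2-fold higher. The highest TH level of a cluster was 23.4 CPM and 12.4 CPM at resolution 0.2, and 36.8 CPM and 21.2 CPM with seed 4, added after seeing the data. At resolution 0.2 a cluster led by STC1 and PLD5 was highest with the WT label, while with the FKO label it had 10.5 CPM and the cluster led by LHX5-AS1 and HCRT was highest. The intervals of these clusters overlapped in both libraries. At resolution 0.2 the highest PNMT level labelled WT was 16 CPM. Except where the construction of the alternative is stated, the cause was not tested.

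With 1 library per label, differences between conditions, clones, purmorphamine doses, sorts and batches cannot be told apart. Most TH cells hold 1 UMI, so the absence of a UMI in a cell is no sign that TH was not expressed. The groups with neither TPH2 nor FEV are small, 102 and 555 cells.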

Other observations

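Genes for other transmitters were present beside the 9 genes. Of 6 listed genes 4 reached 1 CPM and 2 were at least 2-fold higher in the FKO-labelled library, beside 29.4% of all genes, and with 1 CPM asked of both libraries 1 of 3 was, beside 22%. The sums were 166.8 CPM and 125.2 CPM, led by SLC17A8. SLC17A6, the vesicular glutamate transporter VGLUT2, stood at 1.54 CPM and 7.41 CPM (log2 ratio 2.26, 1.97 to 2.57), and GAD2, which makes GABA, at 0.672 CPM and 1.86 CPM (1.47, 0.98 to 1.98). SLC32A1, the vesicular GABA transporter, had 11 UMIs and 20 UMIs.

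Cholinergic partner genes that neurons of many kinds express were measured more deeply than CHAT. ACHE, which degrades acetylcholine, stood at 34.7 CPM and 36.6 CPM, and SLC10A4, a vesicular transporter found in cholinergic and monoaminergic neurons, at 27.2 CPM and 26.8 CPM. Of 13 genes in the list with motor neuron factors 8 reached 1 CPM and 3 were at least 2-fold higher in the FKO-labelled library (CHRNA3, LHX4 and SLC44A1), beside 29.4% of all genes, and with 1 CPM asked of both libraries 2 of 6 were, beside 22%. The sums were 90.9 CPM and 104.7 CPM. MNX1 had 6 UMIs and 1 UMI, LHX3 had 2 UMIs and 1 UMI, and TBX20 had 2 UMIs and 0 UMIs.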
